A study of Caenorhabditis elegans with 8 samples.

Results

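The genes described here are 10 worm genes that bind, store or move metals or answer to them: the metallothioneins mtl-1 and mtl-2, the ferritins ftn-1 and ftn-2, the zinc transporters cdf-2 and ttm-1, the cadmium-responsive genes cdr-1 and cdr-4, and numr-1 and numr-2. They were chosen by name, with earlier results of these data known, among them their levels, their DEET differences within batches and their differences between batches. The values below are therefore a description, and nothing is supported by how many of these genes pass a threshold. Of the 10 genes, 9 were analysed among 46244 gene identifiers, and numr-2 is not analysed here. The measurements are RNA-seq counts and TPM (a transcript level per length, scaled to a fixed total per library) from whole Caenorhabditis elegans of a strain that the labels name col-121, after a cuticle collagen gene. Pools of 1000 worms were taken at the late L4 stage and kept for 24 hours either with the solvent DMSO at 0.1% (4 samples) or with the insect repellent DEET in DMSO (4 samples). The labels give 0.1 M for DEET without saying whether that was the stock or the final concentration. Every sample, control or exposed, came from the same strain and carried DMSO. A batch number from 1 to 4 joins 1 DEET and 1 DMSO sample, and the repeats are described as independent.

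Metallothioneins are small cysteine-rich proteins that hold zinc and cadmium, and in the worm they are made mainly in the intestine. Ferritin shells store iron, and worm ftn-1 is known as an intestinal gene that is switched on when iron is plentiful, whereas ftn-2 is expressed more widely. In worms with excess zinc, cdf-2 loads the metal into the lysosome-related granules of the gut and ttm-1 releases it from intestinal cells, while the nuclear receptor HIZR-1 senses zinc and activates metal response genes. The cdr genes and numr-1 take their names from their response to cadmium and other metals.

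Library totals ran from 44437681 to 50295321 counts. The share of ribosomal RNA was 3.91% to 10.9% in DMSO and 5.99% to 12.1% in DEET, and batch 4 had the highest share in each group. Tissue marker lists also differed between batches. From batches 1 to 3 to batch 4, the summed level went from 3154 to 3884 TPM to 5070 to 6128 TPM for 12 intestine markers, from 646 to 892 TPM to 1071 to 1085 TPM for 8 hypodermis markers, and from 147 to 303 TPM to 453 to 457 TPM for 10 sperm markers. For 12 germline and oocyte markers it went from 4882 to 5127 TPM to 2680 to 3179 TPM. The 10 body wall muscle markers went from 1739 to 2197 TPM to 2677 to 2984 TPM. The summed levels of the remaining lists overlapped between batch 4 and the others. Over all libraries they were 42.2 to 51.2 TPM for pharynx, 36.3 to 57.7 TPM for embryo and 320 to 341 TPM for neurons. Single markers still differed there. Of the neuron markers, 6 of 8 were higher in batch 4, with a median log2 difference of 0.43 over the list. Of the embryo markers, 6 of 8 were lower, with a median of -0.20. No marker of these lists was at 0 in all libraries, and for every list the DMSO and DEET ranges overlapped. In whole-worm RNA, fewer cells of a type and less RNA per cell cannot be told apart.

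Levels per transcript length spanned a wide range, with the ferritins and metallothioneins at the top. The order by mean TPM over all libraries was ftn-2, mtl-2, mtl-1, ftn-1, cdr-4, ttm-1, cdf-2, numr-1 and cdr-1, and each gene lay above the next in 8 of 8 libraries. Ferritin ftn-2 led with a DMSO mean of 464 ± 114 TPM and a DEET mean of 444 ± 88.5 TPM (SD, n = 4). At the other end, cdr-1 had a DMSO mean of 0.92 ± 0.52 TPM and a DEET mean of 1.23 ± 0.90 TPM (SD, n = 4). The spread over the 8 libraries differed between genes. The highest TPM was 4.88 times the lowest for cdr-1, 4.29 times for ftn-1 and 4.24 times for mtl-1, but 1.13 times for ttm-1. For all 9 genes the DEET and DMSO values overlapped. The share of all genes with such an overlap was not counted.

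**Figure D1:**
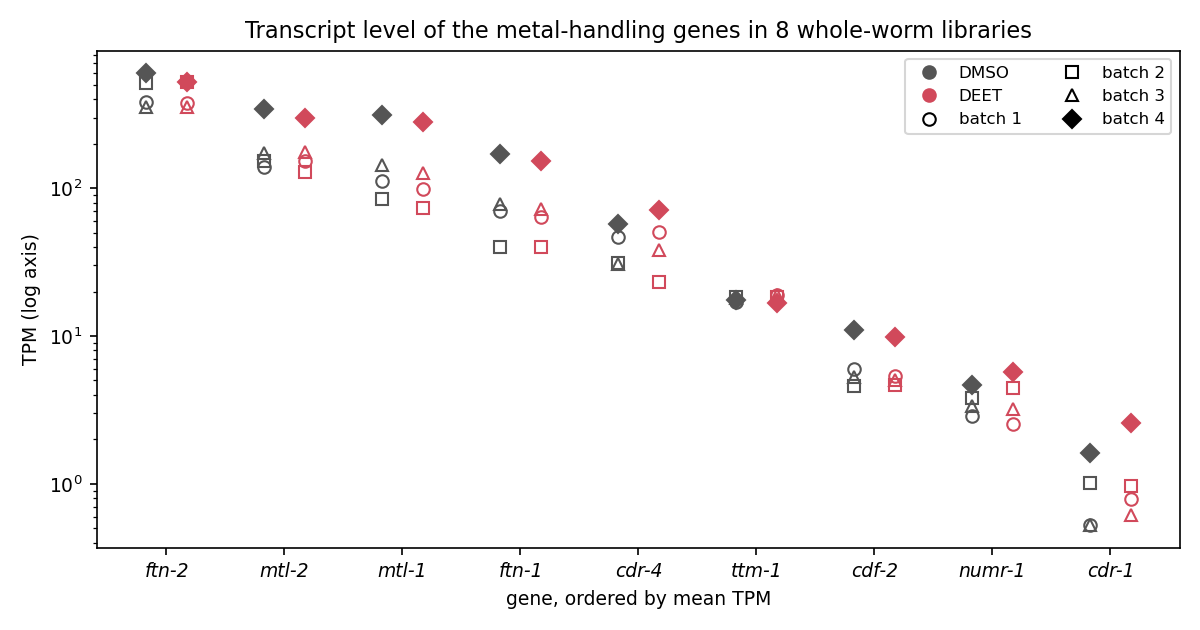
TPM on a log axis for each of the 9 genes, ordered by mean level; every point is 1 library, grey for DMSO and red for DEET, with filled diamonds for batch 4. The batch 4 points lie above the others for 8 genes, and ttm-1 shows 8 nearly equal values between 16.8 and 19.02 TPM.

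The metallothionein genes followed the batch closely. In DMSO, mtl-1 (WBcel235, chromosome V, 6691371 to 6691863, minus strand) stood at 111, 84.2, 144 and 312 TPM in batches 1 to 4. In DEET it stood at 99.2, 73.6, 127 and 279 TPM in the same batches. Batch 4 was highest and batch 2 lowest in each group, and DEET was the lower of the pair in 4 of 4 batches. The log2 difference between DEET and DMSO, on normalised counts per library total (CPM, scaled by TMM, a factor that evens out composition), was -0.15, -0.20, -0.19 and -0.16 in batches 1 to 4, a mean of -0.18 ± 0.02 (SD, n = 4). Each of these 4 differences lay within the 95% counting intervals of the others, and none of the intervals reached 0. Such intervals cover counting error only, not the spread between pools of worms, and are no test within a batch. The batches, by contrast, differed 3.77-fold between batch 4 and batch 2.

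Its relative mtl-2 (chromosome V, 14018270 to 14018673, minus strand) lies elsewhere on the same chromosome. In DMSO it stood at 139.5, 154, 174 and 345 TPM in batches 1 to 4, and in DEET at 152, 129, 175 and 299 TPM. Batch 4 was again above all other libraries, but the sign of the DEET difference varied. The log2 difference was 0.14, -0.25, -0.01 and -0.21 in batches 1 to 4, a mean of -0.08 ± 0.18 (SD, n = 4). The level of mtl-1 as a percentage of that of mtl-2 was lowest in batch 2 (54.8% in DMSO, 56.9% in DEET) and highest in batch 4 (90.4% and 93.4%), so the pair did not move in strict proportion.

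The ferritin genes differed from each other in how they varied. The intestinal ferritin ftn-1 (chromosome V, 7546468 to 7547579, minus strand) stood at 70.4, 40.03, 77.6 and 172 TPM in DMSO and at 63.4, 40.1, 72.3 and 152 TPM in DEET, in batches 1 to 4. It was 4.05-fold higher in batch 4 than in batch 2 on mean log2 CPM. The DEET difference was -0.13, -0.002, -0.11 and -0.17 on the log2 scale, a mean of -0.10 ± 0.07 (SD, n = 4), below 0 in 4 of 4 batches but with the counting interval of batch 2 spanning 0, at -0.15 to 0.15.

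The widely expressed ferritin ftn-2 (chromosome I, 3680180 to 3680927, minus strand) stood at 386, 517, 356 and 599 TPM in DMSO and at 379, 519, 356 and 521 TPM in DEET. Batches 2 and 4 were high and batches 1 and 3 low, in each group. Its DEET level in batch 4 was only just above that in batch 2. The log2 DEET difference was -0.01, 0.002 and -0.01 in batches 1 to 3, with 6706 to 10094 counts behind each value. In batch 4 it was -0.20, with a counting interval of -0.23 to -0.16, and the mean was -0.05 ± 0.10 (SD, n = 4). As a percentage of ftn-2, ftn-1 ran from 7.75% in batch 2 to 28.7% in batch 4 in DMSO and from 7.73% to 29.2% in DEET.

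The zinc transporters gave the plainest contrast within the set. The gut granule transporter cdf-2 (chromosome X, 12464640 to 12466917, minus strand) stood at 5.94, 4.57, 5.25 and 10.99 TPM in DMSO and at 5.35, 4.66, 5.03 and 9.86 TPM in DEET. Batch 4 was above the mean of the other batches by 1.07 on the log2 scale in DMSO and by 0.98 in DEET, and every other library lay at 5.94 TPM or below. Its mean DEET difference was -0.08 ± 0.08 (SD, n = 4) on the log2 scale, and all 4 counting intervals included 0.

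The zinc exporter ttm-1 (chromosome III, 12952969 to 12966995, minus strand, with 3 annotated transcripts) stood at 16.99, 18.3, 18.1 and 17.4 TPM in DMSO and at 19.02, 18.4, 18.98 and 16.8 TPM in DEET. Its batch means spanned a log2 range of 0.11, against 1.17 for cdf-2. In DMSO, cdf-2 was 24.9% to 34.95% of the ttm-1 level in batches 1 to 3 and 63.2% in batch 4. In DEET the same shares were 25.3% to 28.1% and 58.8%. The mean DEET difference of ttm-1 was 0.05 ± 0.10 (SD, n = 4). The values are per gene, so a shift between the annotated transcripts of ttm-1 would not show in them.

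Among the cadmium-responsive genes, cdr-4 (chromosome V, 12407366 to 12408625, minus strand) stood at 46.5, 31.2, 30.7 and 56.9 TPM in DMSO and at 50.6, 23.4, 38.4 and 71.6 TPM in DEET. Its DEET differences were the least alike of the well-covered genes, at 0.14, -0.42, 0.31 and 0.33 in batches 1 to 4. None of their counting intervals, which cover counting error only, included 0, and batch 2 had the opposite sign to the other batches. The mean was 0.09 ± 0.35 (SD, n = 4).

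The founding member cdr-1 (chromosome V, 15921309 to 15922820, plus strand) was the scarcest gene of the set. It had 15, 25, 14 and 48 counts in DMSO and 21, 26, 16 and 77 counts in DEET, in batches 1 to 4. Batch 4 held the most counts in each group. The log2 DEET difference was 0.53, -0.05, 0.20 and 0.63, a mean of 0.33 ± 0.32 (SD, n = 4). In batch 4 the counting interval was 0.12 to 1.21, and in the other batches it included 0. With 1 library per group in each batch, no difference within a batch could be tested.

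On chromosome V, cdr-4 heads a run of 6 related genes within 10012 bases (12407366 to 12417377), all on the minus strand, in the order cdr-4, hrg-2, cdr-7, cdr-6, cdr-2 and cdr-3. They differed in the size of their batch 4 difference although they lie side by side. The log2 difference of batch 4 from the mean of batches 1 to 3 was 0.85 ± 0.12 (SE) for cdr-4 and 0.52 ± 0.09 for its neighbour hrg-2, a heme-responsive gene. It was -0.02 ± 0.10 for cdr-7, 0.02 ± 0.05 for cdr-6 and 0.16 ± 0.09 for cdr-2 (SE). By mean level, batch 2 was the lowest for cdr-4, hrg-2 and cdr-2, but not for cdr-7, and it was the highest for cdr-6. For cdr-2 it stood at 40.8 TPM, against 55.8 to 60.9 TPM in the other batches. In the edgeR fit for any difference among the batches, cdr-4, hrg-2, cdr-2 (adjusted p = 0.0040) and cdr-6 (0.028) passed, beside 64.9% of all genes tested. In that fit cdr-7 did not pass (0.506). The last gene, cdr-3, had 1 to 5 counts per library and was not tested. Since these genes are related in sequence, part of the counts of one may belong to another.

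The row for numr-1 is the locus F08F8.5 (chromosome III, 7362619 to 7363464, minus strand). The annotation has a second locus, F08F8.1, of the same length of 846 bases on the opposite strand, 920 bases away, which the RefSeq table calls numr-2. The Ensembl annotation names both numr-1, but the row was identified by its sequence name. Whether reads of the second locus were counted in this row was not examined, so the values are uncertain in that respect. The gene had 85, 99, 94 and 146 counts in DMSO and 70, 124, 87 and 180 counts in DEET. Batches 2 and 4 were the high ones in each group. Its mean level was 3.69 ± 0.77 TPM in DMSO and 3.96 ± 1.38 TPM in DEET, with SDs over 4 samples. The DEET difference was -0.17, 0.21, -0.08 and 0.27 on the log2 scale, a mean of 0.06 ± 0.21 (SD, n = 4), and all 4 counting intervals included 0.

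Set side by side, the mean DEET difference was below 0 for 5 genes and above 0 for 4. The 36 differences within batches ran from -0.42 to 0.63, and 19 of their counting intervals included 0. Genes below 0 in 4 of 4 batches on log2 CPM were mtl-1 and ftn-1, and no gene was above 0 in all 4. The matching shares of all genes tested were not counted. As a log2 ratio of TPM, ftn-1 was above 0 in batch 2, at 0.003. In the edgeR fit across all genes without the batch, 0 of the 9 genes passed an adjusted p of 0.05, beside 0% of 15496 genes tested. The fitted log2 fold changes lay between -0.17 and 0.43, with unadjusted p values of 0.456 to 0.802 and an adjusted p of 1.00 for each. DESeq2 also gave 0 of the 9, beside 10 of 15442 genes tested. At an unadjusted p under 0.05 the edgeR fit had 0 of the 9, beside 45 of 15496 genes. The median of the 9 was -0.06, against 0.00 for all genes tested. Over the alternatives the sign of these unblocked fold changes differed for 8 of the 9 genes, all but ttm-1. This happened where a single library was left out, so that its batch stayed in 1 group only. For ftn-2 it also happened without batch 4, at 0.001. In the fits with the batch as a term, no gene changed sign. Without the DMSO library of batch 4 the value of ftn-1 was 0.396 and that of cdr-1 0.862, and without the DEET library of batch 4 they were -0.604 and -0.198. The value of mtl-1, -0.17 ± 0.51 (SE) with all libraries, was 0.36 ± 0.43 without the DMSO library of batch 4, 0.07 ± 0.52 without the DEET library of batch 2 and -0.69 ± 0.43 without the DEET library of batch 4 (SE). With the batch number as a term in the edgeR fit, 0 of the 9 genes passed, beside 0.0839% of all genes tested. There mtl-1 stood at -0.18 ± 0.04 (SE), with an unadjusted p of 0.0026 and an adjusted p of 0.723, and ftn-1 at -0.11 ± 0.04 (SE), with an unadjusted p of 0.028 and an adjusted p of 1.00. These were the 2 of the 9 genes with an unadjusted p under 0.05 in that fit, beside 526 of 15496 genes.

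**Figure D2:**
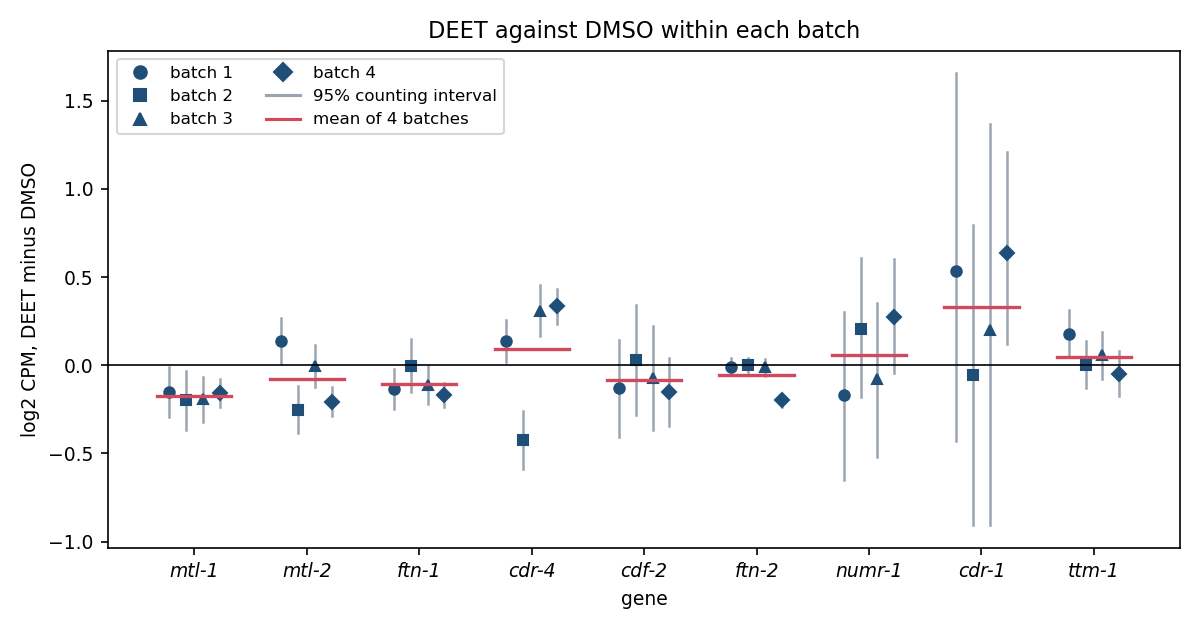
Difference of log2 CPM between the DEET and the DMSO library of each batch, for each gene; bars are 95% counting intervals and red lines are means of 4 batches. The 4 points of mtl-1 sit between -0.20 and -0.15, those of cdr-4 spread from -0.42 to 0.33, and the wide bars of cdr-1 reflect its 14 to 77 counts.

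Differences between batches were larger than those between treatments for 8 of the 9 genes, the exception being ttm-1, whose batch range of 0.11 was below its largest DEET difference within a batch of 0.18. For the same 8 genes, both libraries of batch 4 stood above all 6 other libraries. How many of all genes tested showed either pattern was not counted. Expressed as batch 4 over the mean of batches 1 to 3, mtl-1 was 2.83-fold higher in DMSO and 2.88-fold higher in DEET. The matching values were 2.86 and 2.69 for ftn-1, 2.24 and 1.99 for mtl-2, 1.61 and 2.02 for cdr-4, and 1.45 and 1.27 for ftn-2. The value of cdr-1 was 2.32-fold in DMSO and 3.08-fold in DEET, and that of numr-1 was 1.41-fold and 1.72-fold. The edgeR fit with batch and treatment as terms tested for any difference among the 4 batches, so a gene can pass in it without standing apart in batch 4. In that fit 8 of the 9 genes passed, beside 64.9% of all genes tested, and ttm-1 did not, with an adjusted p of 0.545. By the sign of the fitted batch 4 difference, all 8 lay above 0. Of the 10053 genes that passed over all genes tested, 5445 lay above 0 and 4608 below. The median fitted difference of batch 4 from the mean of batches 1 to 3 over the 9 genes was 1.03 on the log2 scale, against 0.08 over all genes tested. The intestine, hypodermis, body wall muscle, sperm and germline markers given above and the ribosomal RNA share moved with batch 4 as well. In that batch 9 of 12 intestine, 7 of 8 hypodermis, 8 of 10 body wall muscle, 10 of 10 sperm and 1 of 12 germline and oocyte markers were higher. In the lists whose sums overlapped, 6 of 8 neuron, 4 of 8 pharynx and 2 of 8 embryo markers were higher. The part of the markers and of the ribosomal RNA share in the result was not tested.

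**Figure D3:**
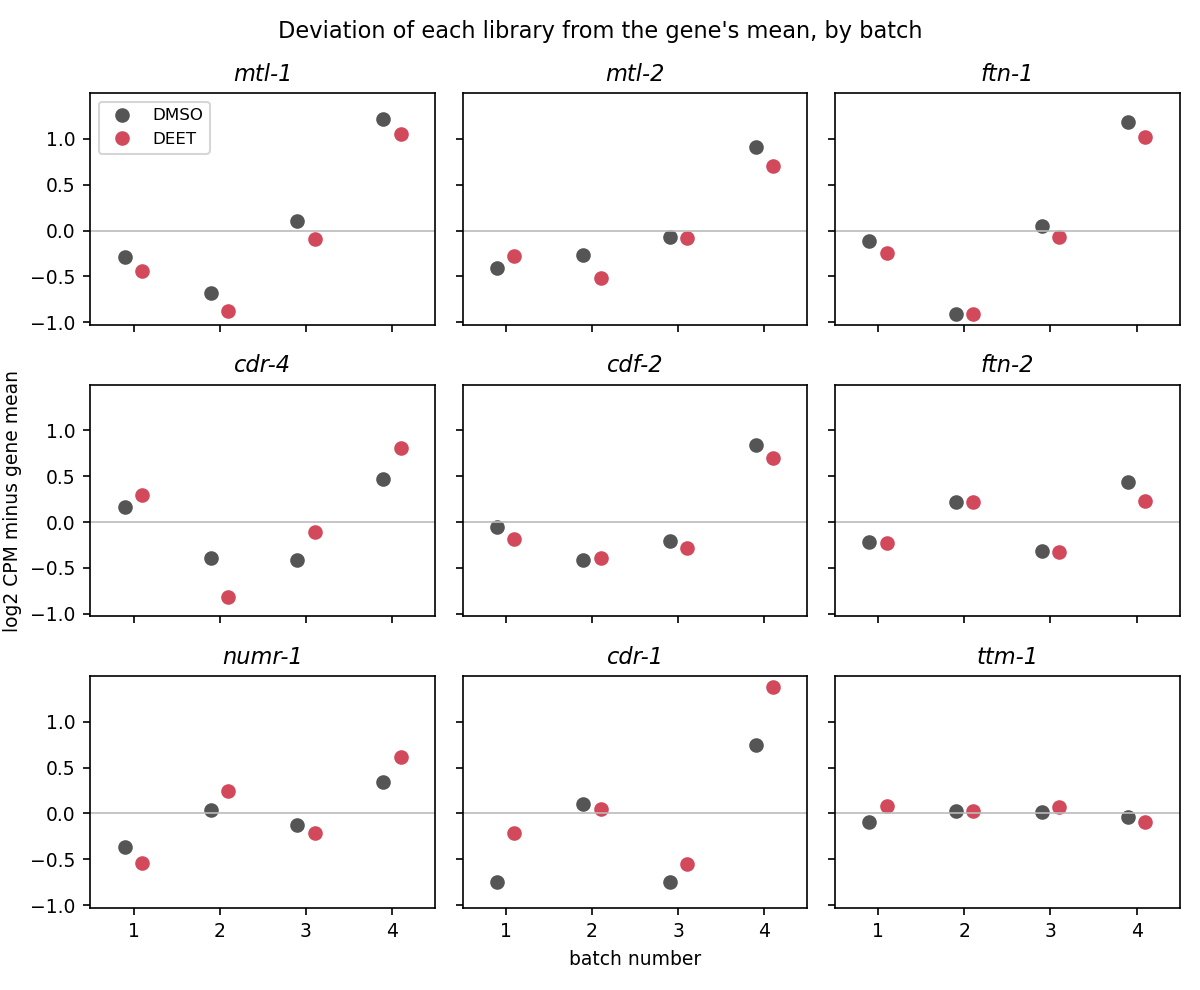
Log2 CPM of each library minus the mean of the gene over 8 libraries, against the batch number, with DMSO in grey and DEET in red. Batch 4 is the highest in all panels but that of ttm-1. By the mean of its DMSO and DEET libraries, batch 2 is the lowest for mtl-1, mtl-2, ftn-1, cdr-4 and cdf-2. It is not the lowest for ftn-2, numr-1 and cdr-1. In DMSO alone, batch 1 is the lowest for mtl-2 and batch 3 for cdr-4.

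Batches 1 to 3 separated the genes in another way. Batch 2 had the lowest mean of all batches for 5 genes, mtl-1, mtl-2, ftn-1, cdr-4 and cdf-2. In DMSO alone this did not hold for mtl-2, at 4.36 in batch 1 and 4.51 in batch 2 on log2 CPM. Nor did it hold for cdr-4, at 3.97 in batch 3 and 3.99 in batch 2. By the mean, batch 2 was the second highest after batch 4 for ftn-2, numr-1 and cdr-1. It was also the second highest for ttm-1, after batch 3, within that gene's narrow range. With batch 4 left out, an alternative chosen after the data were seen, 3 of the 9 genes passed for the batch, beside 19.5% of all genes tested: ftn-2 (edgeR adjusted p = 4.2e-06), ftn-1 (3.1e-05) and mtl-1 (1.7e-04). The ferritins thus went in opposite directions in batch 2, with ftn-2 at its highest of these 3 batches and ftn-1 at its lowest.

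Across the 8 libraries, which share 4 batches, log2 CPM of mtl-1, mtl-2, ftn-1 and cdf-2 ran together, with Pearson's r of 0.93 to 0.98 over their 6 pairs. Over the 6 libraries of batches 1 to 3 the same pairs had r of 0.05 to 0.93, a wider range than with batch 4 included. Over the 8 libraries the pairs of mtl-1, mtl-2, ftn-1 and cdf-2 had the highest r of the set, so grouping them is a description only. Pairs outside that group and without ttm-1 ran from 0.17 (ftn-2 with cdr-4) to 0.85 (numr-1 with cdr-1). The values for ttm-1 with the other 8 genes were -0.66 to -0.37. Among 12384 other genes with a mean of at least 50 counts, those most like mtl-1 were C50C3.5 (r = 0.994), cyp-32B1 (0.994) and spp-8 (0.991). For mtl-2 they were rpl-29 (0.994), lim-6 (0.994) and asah-1 (0.992), for ftn-1 bigr-1 (0.999), F43C11.7 (0.998) and lro-1 (0.996), and for cdf-2 lgg-1 (0.997), Y39G10AR.11 (0.996) and fbxa-167 (0.995). The nearest to ftn-2 were F44A6.5 (0.995), gda-1 (0.992) and gst-28 (0.983), and to numr-1 clec-187 (0.974), Y25C1A.14 (0.960) and chil-19 (0.953). For cdr-1 they were nhr-237 (0.995), Y119D3B.21 (0.980) and F09F9.1 (0.972), for cdr-4 catp-4 (0.995), Y40H4A.2 (0.994) and Y66D12A.11 (0.993), and for ttm-1 Y39B6A.41 (0.942), Y47H10A.6 (0.927) and D1046.4 (0.921). The 8 libraries hold 4 batches, and ttm-1, with its narrow range, had the lowest of these values. The genes named are the highest of 12384, so values near 1 can come from that choice. For them r without batch 4 was not computed.

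Other genes of metal handling went in either direction. A list of 57 other gene names held the other cdr genes, zinc, iron, heme and copper transport genes, cadmium and arsenite defence genes, and regulators. Of these names, 56 matched a row by symbol, all but cdr-5, and 53 were tested. Whether cdr-5 is another name of hrg-2, which lies in the run of cdr genes, was not examined. In the DEET fit 0 of 53 passed, beside 0% of all genes tested, and 0 of 53 had an unadjusted p under 0.05, beside 45 of 15496 genes. With the batch number as a term 0 of 53 passed, and pqm-1 alone had an unadjusted p under 0.05, at 0.0058, beside 526 of 15496 genes. In the batch fit, which tested for any difference among the 4 batches, 40 of 53 passed, beside 64.9% of all genes tested. By the sign of the fitted batch 4 difference, which that test does not call, 19 of the 40 lay above 0 and 21 below, with cdr-6 within 1 SE of 0. The median batch 4 difference over the 53 was -0.02, against 0.08 over all genes tested.

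By role, 13 of 17 other zinc transporter genes passed in the batch fit, 5 with a batch 4 difference above 0 and 8 below. The ZIP-family zinc transporter genes zipt-17 and zipt-2.2 had the highest values, at 1.25 ± 0.21 and 0.87 ± 0.14 (SE), from 21 to 86 and 46 to 129 counts per library. Of 12 tested iron and heme genes, 9 passed, 5 above 0 and 4 below. The heme transporter gene hrg-1 stood at 0.82 ± 0.06 and the iron and manganese importer gene smf-3 at 0.81 ± 0.13 (SE). All 3 copper genes that passed, of 4, were below 0, among them the copper pump gene cua-1 at -0.41 ± 0.05 (SE). Among 7 cadmium and arsenite defence genes 6 passed, 4 above 0 and 2 below, and the P-glycoprotein gene pgp-3 stood at 0.78 ± 0.06 (SE).

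Of 10 regulators, 7 passed in the batch fit, 3 with a batch 4 difference above 0 and 4 below. The transcription factor gene pqm-1 stood at 0.87 ± 0.05, and egl-9, which encodes the oxygen-sensing hydroxylase that acts on HIF-1, at 0.58 ± 0.05 (SE). The intestinal GATA factor gene elt-2 stood at 0.27 ± 0.08 (SE). The zinc sensor gene hizr-1 stood at 0.38 ± 0.13 (SE) and did not pass in the batch fit, with an adjusted p of 0.077, nor did hif-1 at 0.07 ± 0.05 (SE, adjusted p = 0.241). The stress regulator genes hsf-1 and skn-1 were below 0, at -0.57 ± 0.05 and -0.50 ± 0.05 (SE), as was daf-16 at -0.195 ± 0.05 (SE).

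**Figure D4:**
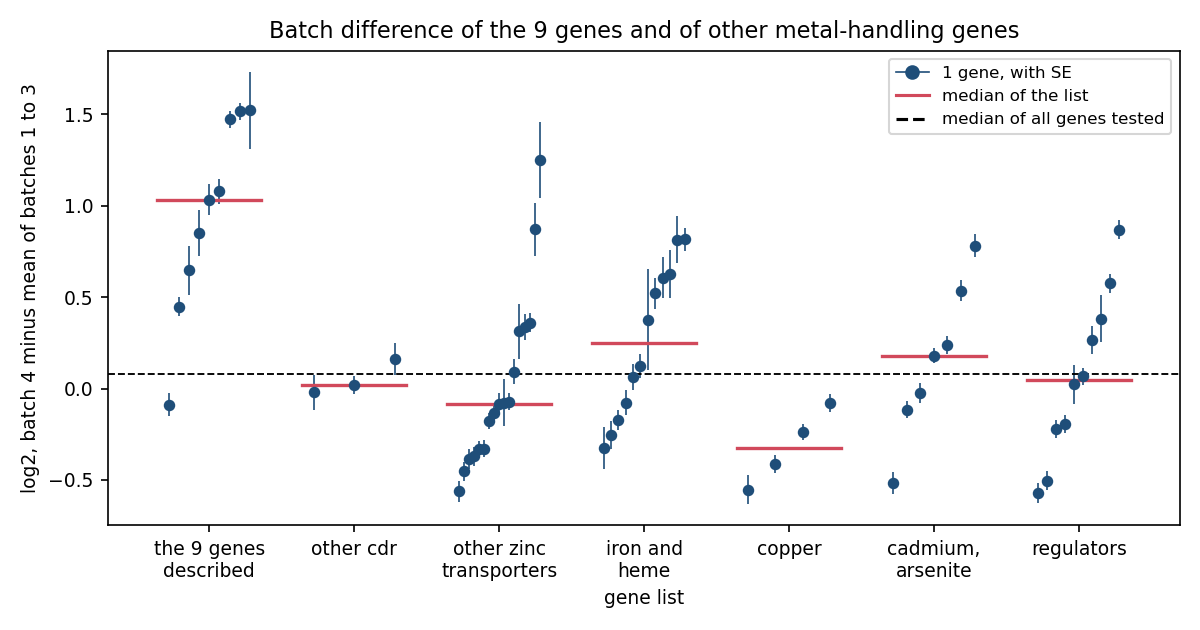
Fitted log2 difference of batch 4 from the mean of batches 1 to 3 for each tested gene, by list; bars are SEs, red lines are list medians and the dashed line is the median of all genes tested. The 9 genes have a median of 1.03, the copper genes all lie below 0, and the other lists spread on both sides of 0.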

How the data were processed

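Polyadenylated RNA of whole worms was sequenced in 8 samples. The submitters' processing notes name Salmon, DESeq2 and the genome build WBcel235, but no version, setting or strand use. The deposited counts are whole-number counts per gene, not normalized, and the TPM values were scaled by the authors to a fixed total per library. Of the identifiers, 46177 matched 1 gene of the Ensembl annotation for that build (coordinates 1-based). Symbols came from the RefSeq table.

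The members and lists were chosen with earlier results of these data known. Counts were tested with edgeR 4.0.16 in R 4.3.3 (quasi-likelihood, TMM, default expression filter, two-sided, Benjamini-Hochberg over 15496 genes, threshold 0.05), with the treatment alone for DEET and with batch and treatment for the batch, where the 3 batch terms were tested together. All 9 analysed genes passed the filter, and none overlaps another annotated gene. An SE is the fitted value over the root of F. Differences within batches use log2 CPM with a prior count of 2. Their intervals are exact binomial 95% intervals that cover counting error only. The labelled batch pairs the samples, and deviations from group means correlated at 0.43, 0.71, 0.56 and 0.90 within batches 1 to 4. Chi-square per gene between libraries of a group reached 14.4 or more, so none repeated another. The fits were tested on simulated data. For the DEET fit without the batch, the simulated data held no batch differences, unlike these samples. That simulation therefore cannot show how readily this fit finds DEET differences here. Alternatives were DESeq2 1.42.0, limma 3.58.1 on log2 TPM with pseudocounts of 1 and 0.1, other scaling, no filter, no ribosomal RNA genes, the batch as a block, and libraries or batches left out. Named were all members, the 6 other metal genes with the largest batch differences that passed, and the 3 genes most like each member. The other cdr genes, hrg-2, cua-1 and the regulators besides pqm-1 were named after their values were seen.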

Additional observations from a re-analysis of the deposited data

Results flagged for a closer look

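The DEET library of batch 4 stood apart for cdf-2: its gap to the next of the 4 DEET libraries was 0.865 of the whole range on the CPM scale, above the 95% critical value of Dixon's test for 4 samples. The DMSO library of batch 4 was also the highest of its group for this gene. Of 18 sets of 4 libraries examined (9 genes in each group) this was the 1 set above that value, and chance alone gives about 1 in 20.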

How the results depend on the processing

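With the batch as a replicate block, 0 of the 9 genes passed for DEET, beside 0.0839% of all genes tested, and the count was 0 in each of the 24 alternatives run for DEET, where the lowest adjusted p was 0.489 (cdr-4, blocked, without batch 2). The blocked log2 fold change of mtl-1 was -0.175 ± 0.04 (SE), with an unadjusted p of 0.0026 and an adjusted p of 0.723, and it lay between -0.18 and -0.15 with adjusted p values of 0.723 to 1.00 over the 6 fits with the block. The block changed no call among the 9 genes or the other metal genes, and over all genes it passed 13, against 0 without it. Over all genes the DEET alternatives passed 0 to 20. The number of the 9 genes that passed for the batch was 8 in each alternative that kept all batches, and leaving out batches or single libraries gave 3 to 8, with 3 without batch 4, where fewer libraries entered and 2992 genes passed in all, against 10053. For the 53 other metal genes these fits gave 14 to 39, with 14 without batch 4. Leaving out a whole batch in the batch fit, and in the DEET fit without the block, was chosen after the data were seen. The median difference of batch 4 was 0.82 on log2(TPM + 1), where low genes are compressed, and 0.94 to 1.05 with libraries or batches left out. The sign of each gene's batch difference was the same in every alternative that gave one. Depth limits cdr-1 and numr-1 most.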
